A study of Mus musculus with 29 samples.

Results

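The genes for guanylate-binding proteins (GBPs) were followed across colon RNA-seq of 29 mice, in 6 models of colitis and 3 groups of untreated controls. Members were taken by name, as the rows of the count table whose Ensembl identifier belongs to Gbp2, Gbp2b, Gbp3, Gbp4, Gbp5, Gbp6, Gbp7, Gbp8, Gbp9 or Gbp10. These were 10 of the 54532 genes in the table, and all 10 passed the filter on low counts. Each library was made from poly(A) RNA of a colon segment of 1 mouse. Such a segment holds epithelium, muscle, stroma and immune cells together, so that fewer cells of a type and less RNA per cell cannot be told apart.

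The groups were these, as labelled. The wild-type controls (n = 3) were untreated Balb/C mice, and Balb/C mice were also used for 3 models. DSS mice (n = 3) drank 3% dextran sulfate sodium, which injures the epithelium, for 5 days and were culled at day 10. DNBS mice (n = 3) received 3 mg of the hapten dinitrobenzene sulfonic acid by the rectal route. IL-10 blockade mice (n = 4) received an IL10 blocking antibody, described in the protocol as 750 µg against the IL-10 receptor, with culling by 4 weeks. The remaining groups carried Rag mutations, which remove mature T and B cells. Labelled Rag1 controls (n = 3) were untreated C57BL/6 Rag1-/- mice, and the same genotype was given for anti-CD40 mice (n = 3), which received 50 µg of agonistic antibody and were culled after 7 days. T-cell transfer mice (TCT, n = 3) were labelled C57BL/6 Rag1-/- and received 500000 naive CD4+ T cells, with culling after 6 to 8 weeks, while the protocol calls such recipients Rag2-/-. Rag2 controls (n = 3) were untreated Balb/C Rag2-/- mice, and TRUC mice (n = 4) were untreated Balb/C mice lacking both Tbx21 and Rag2, which develop colitis spontaneously. For the models on wild-type hosts the study's methods differ from the labels, which name C57BL/6 as the strain of the wild-type and DSS animals and describe the IL-10 model as Il10-/- mice gavaged with gut bacteria.

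GBPs are large GTPases that interferon-gamma, and less strongly type I interferons, induce in epithelial cells, macrophages and most other cells. They assemble on the vacuoles and membranes of bacteria and parasites, help to rupture them, and expose bacterial lipopolysaccharide to the inflammatory caspases. Their promoters are known for 2 kinds of interferon-responsive element, the GAS element and the interferon-stimulated response element (ISRE), the latter bound by IRF family factors such as IRF1. In inflamed intestine GBP transcripts are a common readout of interferon signalling.

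The members lie in 2 clusters. On chromosome 3 of GRCm38 the plus strand carries Gbp5 (142493978 to 142522344), Gbp7 (142530342 to 142550149), Gbp3 (142560026 to 142573209), Gbp2b (142594847 to 142619179) and Gbp2 (142620602 to 142638008). On chromosome 5 the minus strand carries Gbp8 (105014150 to 105139540), Gbp9 (105077630 to 105139539), Gbp4 (105115767 to 105139586), Gbp10 (105215699 to 105239533) and Gbp6 (105270702 to 105293698). All 10 are annotated as protein-coding, and reads were counted over their exons. Several overlap other genes on the same strand. Gm43302 covers 46.3% of the exon bases of Gbp10 and 29% of those of Gbp6, and Gm43802 covers 11.3% of those of Gbp7. Gbp8, Gbp9 and Gbp4 overlap each other over 0.814% to 1.77% of their exon bases. Of the 50-base windows in their transcripts, 70.7% in Gbp6 and 84.1% in Gbp10 were also found in another gene. Gm43302 shared most with Gbp6, at 65.0%, and Gbp6 shared most with Gbp10, at 73.3%. Counts of Gbp6 and Gbp10 are therefore uncertain, since a read from the shared sequence has no single gene to be given to. The other 8 members shared between 1.44% (Gbp5) and 18.1% (Gbp8) of their windows.

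Promoter windows of RefSeq on GRCm38.p6, from 250 bases before to 50 bases after the start of transcription, were at hand for 5 members, all of the chromosome 3 cluster. They are shown because all 5 hold the ISRE core, spelled GAAA, any 2 bases and GAAA again and searched on both strands, in the bases before the start. The start here is that of RefSeq, which for Gbp5, Gbp3 and Gbp2 lies inside the gene bounds given above. Among all 32851 promoter windows of the same length 3.44% hold this core. The GAS pattern TTCNNNGAA, which reads alike on both strands and overlaps none of the ISRE cores found here, was present in the windows of Gbp5 and Gbp7 and in 8.3% of all windows. Matches are descriptions of the sequence and not evidence of binding. The 250 bases before the start are printed from 5′ to 3′ on the plus strand, with every ISRE core and GAS pattern in capitals.

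Gbp5, chr3:142496684-142496933: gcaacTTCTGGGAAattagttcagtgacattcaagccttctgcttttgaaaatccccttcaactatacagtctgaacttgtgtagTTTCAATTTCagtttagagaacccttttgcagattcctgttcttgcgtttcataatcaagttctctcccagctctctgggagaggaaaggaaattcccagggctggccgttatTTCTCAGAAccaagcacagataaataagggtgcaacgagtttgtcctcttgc
Gbp7, chr3:142530086-142530335: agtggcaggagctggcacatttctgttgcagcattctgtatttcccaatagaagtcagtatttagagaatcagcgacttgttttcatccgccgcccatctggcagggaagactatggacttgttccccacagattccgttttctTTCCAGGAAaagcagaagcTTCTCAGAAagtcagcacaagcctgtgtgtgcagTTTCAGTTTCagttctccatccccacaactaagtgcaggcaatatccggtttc
Gbp3, chr3:142559794-142560043: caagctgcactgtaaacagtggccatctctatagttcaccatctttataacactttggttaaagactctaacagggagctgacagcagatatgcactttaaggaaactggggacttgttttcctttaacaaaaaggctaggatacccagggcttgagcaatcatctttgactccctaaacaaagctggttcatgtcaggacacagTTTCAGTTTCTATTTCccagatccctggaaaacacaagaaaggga
Gbp2b, chr3:142594597-142594846: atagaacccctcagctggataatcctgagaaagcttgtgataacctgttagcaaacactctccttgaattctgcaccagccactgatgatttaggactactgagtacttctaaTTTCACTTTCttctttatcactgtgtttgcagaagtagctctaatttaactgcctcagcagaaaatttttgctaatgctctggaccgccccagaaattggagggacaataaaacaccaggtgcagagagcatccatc
Gbp2, chr3:142620413-142620662: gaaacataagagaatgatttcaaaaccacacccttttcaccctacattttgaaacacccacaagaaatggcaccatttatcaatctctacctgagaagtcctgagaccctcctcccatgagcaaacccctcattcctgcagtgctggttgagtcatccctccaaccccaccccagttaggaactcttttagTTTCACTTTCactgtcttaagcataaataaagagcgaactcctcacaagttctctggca

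In all 5 genes the ISRE core lies on the minus strand, so that the printed strand shows TTTC, any 2 bases and TTTC. Its first printed base lies 45 bases before the start in Gbp3, 53 in Gbp7, 59 in Gbp2, 137 in Gbp2b and 165 in Gbp5. Gbp3 holds a further core that overlaps the first and begins 39 bases before the start. The GAS patterns of Gbp5 begin 245 and 52 bases before the start, and those of Gbp7 106 and 87 bases before it. A further RefSeq window of Gbp3, beginning at chr3:142560106, holds neither pattern.

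**Figure D1:**
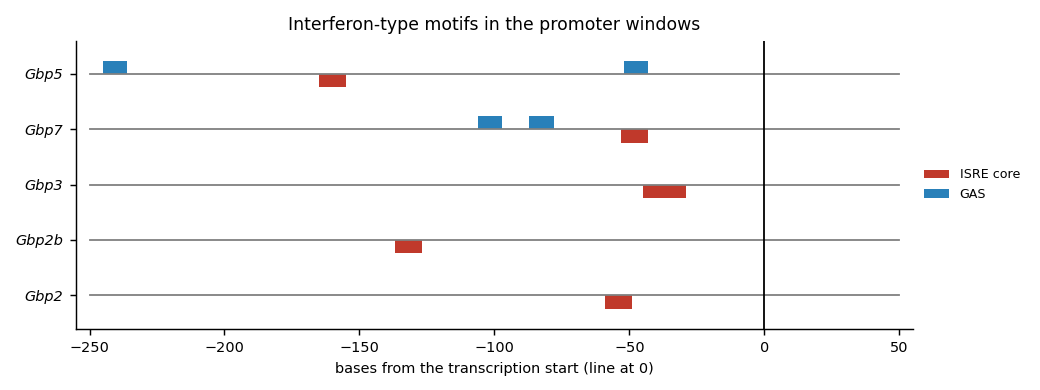
Positions of the ISRE core (red) and the GAS pattern (blue) in the promoter windows of the 5 chromosome 3 members, with the distance from the start of transcription in bases on the x axis and 1 line per gene. All 5 lines carry a red mark, and the lines of Gbp5 and Gbp7 carry blue ones as well.

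Total counts per mouse ran from 10725564 to 14977094, and every level below is in CPM, counts set to a common library size with TMM factors. A count of 0 allows up to 3 counts, which is 0.179 to 0.313 CPM in these libraries, for counting error only. The transcripts that check the labels went against several of them. H2-Ea-ps, a class II gene that is transcribed in BALB/c and not in C57BL/6 mice, had 784 to 3956 counts in the 13 libraries labelled Rag1 control, anti-CD40, Rag2 control and TRUC. It had 0 or 1 count in the 16 libraries labelled wild-type control, DSS, DNBS, IL-10 blockade and TCT. The libraries labelled Balb/C without a Rag mutation, and those labelled C57BL/6 Rag1 control or anti-CD40, thus each had the H2-Ea-ps pattern of the other strain. Rag2 transcripts, with 6 to 99 counts in the Rag1 control, anti-CD40, Rag2 control and TRUC libraries and 0 in TCT, divided the Rag mutants in the same way, and had 0 or 1 count in the libraries without a Rag mutation. Rag1 transcripts had 20 to 33 counts in TCT and at most 4 elsewhere. Tbx21, deleted in TRUC, had 26 to 52 counts there, and Il10 had 61 to 111 counts in IL-10 blockade. A gene-level count does not tell whether reads come from a deleted part, so these last 2 do not settle a genotype. The comparison of TCT with its labelled controls therefore crosses the split in H2-Ea-ps, and a further comparison set TCT against the wild-type controls, chosen after the data were seen to share its pattern. Anti-CD40 was also compared with the Rag2 controls.

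Among the untreated mice the cluster on chromosome 3 gave the most RNA per length. Per kilobase of exon, Gbp2 ranked first in the wild-type controls at 13.2 ± 0.714 CPM per kilobase (SD, n = 3), and Gbp3 was next at 3.85 ± 0.255 (SD, n = 3). Gbp7 and Gbp9 followed at 3.29 ± 0.556 and 2.21 ± 0.386 CPM per kilobase (SD, n = 3), while Gbp10 had no count in any wild-type control. In the Rag2 controls the order began with Gbp2b, at 32.4 ± 10.6 CPM per kilobase (SD, n = 3), ahead of Gbp2 at 25.3 ± 7.99. These 2 ranges overlapped, whereas in the wild-type controls Gbp2b stood eighth of 10 at 0.371 ± 0.105 CPM per kilobase (SD, n = 3).

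Gbp2b, formerly called Gbp1 and known to differ between mouse strains in its induction, separated the untreated groups. The wild-type controls had 1.07, 1.33 and 0.738 CPM. The labelled Rag1 controls had 45.5, 34.2 and 104 CPM and the Rag2 controls 112, 105 and 57.1 CPM. Every Rag control thus lay above every wild-type control. The Rag controls also lie on the other side of the split in H2-Ea-ps, so Rag genotype and strain cannot be told apart here. The Rag2 controls exceeded the wild-type controls by 6.41 ± 1.28 on the log2 scale (SE, adjusted p = 0.00142). Gbp2b was the 1 member of 10 called higher in this comparison, where 3.25% of all 18616 genes tested were called higher. No member was called lower, where 4.86% of all genes were. DESeq2, or edgeR on these 2 groups alone, called 6 members each. Gbp2, Gbp3, Gbp7, Gbp6 and Gbp2b were among them in both, with Gbp6 lower in the Rag2 controls. The share of all genes called was not counted for these 2 fits, so the 6 calls cannot be set against it.

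The other members differed less between the untreated groups. Gbp6 went the opposite way, at 1.14, 0.865 and 0.984 CPM in the wild-type controls against 0.324, 0.294 and 0.172 in the labelled Rag1 controls and 0.177, 0.153 and 0.151 in the Rag2 controls. These groups did not overlap, but the Rag libraries held only 2 to 4 reads each, and the fitted difference of -2.57 ± 1.58 between Rag2 and wild-type controls did not pass (adjusted p = 0.398). Gbp10, listed at 0 in the wild-type controls, had 2 to 9 counts in the Rag controls. Gbp4, Gbp5 and Gbp8 overlapped between Rag2 and wild-type controls, with differences of -0.04, 0.24 and -0.13 on the log2 scale. Gbp2, Gbp3 and Gbp7 were higher in every Rag2 control than in any wild-type control and Gbp9 was lower in each, with fitted differences of 0.94 ± 0.838, 1.00 ± 0.743, 0.80 ± 0.634 and -0.54 ± 0.570 that did not pass. These standard errors rest on a spread pooled over all 9 groups, not on the control groups alone.

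**Figure D2:**
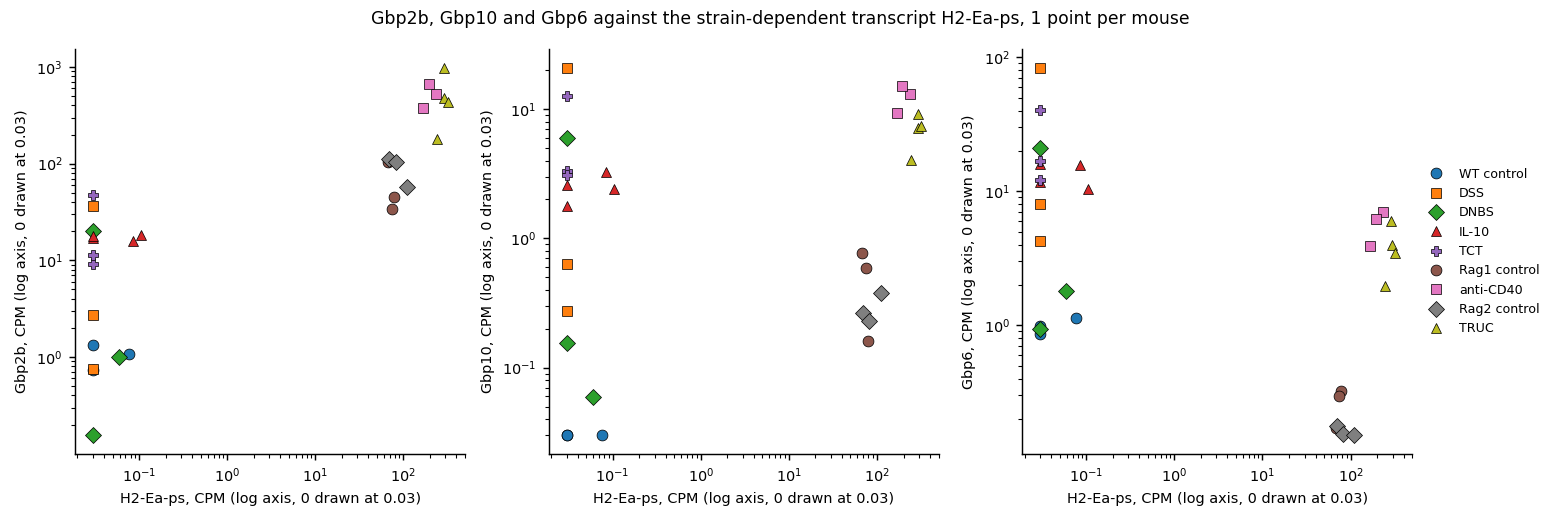
Each point is 1 mouse, with H2-Ea-ps on the x axis and Gbp2b, Gbp10 or Gbp6 on the y axis of the 3 panels, all as CPM on log axes with values of 0 drawn at 0.03. The 13 mice with H2-Ea-ps reads stand at the right of each panel, where the lowest Gbp2b value of 34.2 CPM lies above all but 2 of the 16 mice at the left.

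In TRUC colitis 9 of the 10 members rose, by 1.72 (Gbp7) to 4.53 (Gbp10) on the log2 scale, where 22.4% of all genes tested were called higher. Gbp2 missed the threshold. The median difference over the members was 2.79, against -0.03 over all genes. No member overlapped between TRUC and the Rag2 controls. The share of all genes without overlap was not counted, in this or any other comparison.

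Gbp4, of the chromosome 5 cluster, changed clearly. It stood at 193, 296, 163 and 81.9 CPM in TRUC and at 9.56, 8.79 and 9.28 CPM in the Rag2 controls. The lowest TRUC mouse was well above the controls, and the difference was 4.32 ± 0.928 on the log2 scale (SE, adjusted p = 0.000684). Gbp5, whose protein has been tied to inflammasome activation, stood at 71.2, 156, 77.9 and 33.9 CPM against 10.6, 8.64 and 5.81, a difference of 3.35 ± 0.896 (adjusted p = 0.00406). Gbp2b stood at 473, 982, 436 and 178 CPM, a rise of 2.51 ± 0.929 (adjusted p = 0.0307) from controls that were already high. Gbp2, a protein that coats parasite vacuoles, stood at 214, 334, 203 and 91.1 CPM against 71.8, 78.5 and 40.8. Its groups did not overlap, yet the difference of 1.72 ± 0.810 did not pass (adjusted p = 0.0848).

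TRUC mouse 3 had the highest value of all 10 members and mouse 5 the lowest of all 10. Gbp6 rose from 2 reads in each Rag2 control to 24 to 67 reads in TRUC, a ratio of summed reads of 23.9 with a 95% exact counting interval of 10.8 to 66. This interval covers counting error only and leaves out the spread between mice. The fitted difference was 4.50 ± 1.33 on the log2 scale (SE, adjusted p = 0.00824). Gbp2b and Gbp3 lost their call without TRUC mouse 3 or any 1 of the Rag2 controls, and Gbp7 without TRUC mouse 3 or Rag2 control 2 or 4, which left as few as 6 calls. Neutrophil markers moved with these genes, as 5 of 5 were called higher. Their summed level was 1530 to 2090 CPM in TRUC against 211 to 338 CPM in the Rag2 controls, where Cxcr2 was at 0. Ly6g made up most of this sum in every control group. Its means were 264 CPM in the Rag2, 212 in the labelled Rag1 and 136 in the wild-type controls. S100a8 averaged 0.287, 0.243 and 0.201 CPM there. In TRUC Ly6g averaged 846 and S100a8 436 CPM. Macrophage and monocyte markers, 5 of 5 higher, summed to 97.1 to 142 CPM against 46.7 to 69.1. The part of these cells in the result was not tested.

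In DSS colitis all 10 members rose against the wild-type controls, where 17.7% of all genes were called higher, but 1 mouse stood far above its group. The median difference was 4.18, against 0.02 over all genes. Gbp2 stood at 295, 160 and 2110 CPM in DSS mice 5, 6 and 8 and at 35.3, 31.9 and 32.6 CPM in the controls. All 3 DSS mice exceeded the controls, with mouse 8 far above the other two, and the difference was 4.68 ± 0.955 (adjusted p = 0.000642). Gbp5 stood at 65.0, 29.3 and 680 CPM against 6.93, 6.92 and 7.38, a difference of 5.19 ± 0.988 (adjusted p = 0.000350). Gbp9 stood at 49.4, 37.0 and 296 CPM against 13.6, 9.65 and 11.1, a difference of 3.48 ± 0.579 (adjusted p = 9.7e-05). For both genes the lowest DSS mouse lay above the highest control.

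Gbp2b was the exception to this separation in DSS. It stood at 2.70, 0.752 and 36.4 CPM, overlapped the controls through mouse 6, and passed at 3.62 ± 1.25 (adjusted p = 0.0283), a call that was lost without any 1 of the wild-type controls (adjusted p = 0.0693 to 0.0848). Gbp10, without a read in the controls, had 10, 4 and 262 counts in DSS mice 5, 6 and 8. The DSS mean was at least 32.4-fold higher when each control library is set to 3 counts. That mean rests on mouse 8, at 20.9 CPM against 0.629 and 0.273 CPM in mice 5 and 6, so the bound does not hold for each mouse. Mouse 8 was highest for all 10 members, and mouse 6 lowest for all 10.

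Without DSS mouse 8, 5 of the 10 members were called, and Gbp2b (adjusted p = 0.743), Gbp10 (0.131), Gbp8 (0.0846), Gbp4 (0.0653) and Gbp7 (0.057) were lost. Ifng, the gene of interferon-gamma, had 7, 2 and 594 counts in DSS mice 5, 6 and 8. The same mouse led the marker sums, with neutrophils at 484, 731 and 2230 CPM and macrophages and monocytes at 250, 275 and 628 CPM in mice 5, 6 and 8. In the wild-type controls these sums were 131 to 145 and 97.9 to 120 CPM. Of the neutrophil sum, Ly6g averaged 491 CPM in DSS and 136 CPM in the controls. T-cell markers, 4 of 5 higher, summed to 30.4 to 47 CPM against 9.05 to 15.2, and endothelial markers, 3 of 3 higher, to 184 to 252 CPM against 117 to 122. The part of these cells in the rise was not tested.

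In DNBS colitis 1 member, Gbp2, rose, where 3.95% of all genes were called higher. It stood at 71.6, 52.8 and 823 CPM in DNBS mice 11, 14 and 16, above every wild-type control, a difference of 3.25 ± 0.896 (adjusted p = 0.0339). The other 9 members had positive differences that did not pass, from 1.10 ± 0.549 (Gbp9) to 2.95 ± 0.995 (Gbp6), with Gbp10 at least 9.17-fold higher against the 3-count limit. The median was 2.30, against 0.01 over all genes. Gbp9 at 15.3, 14.6 and 43.9 CPM and Gbp3 at 21.1, 14.3 and 155 CPM did not overlap the controls. Gbp10 had 1, 2 and 70 counts, so that mouse 16 alone lay above the 3 counts that a control at 0 allows.

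Here too 1 mouse stood apart. DNBS mouse 16 was highest for all 10 members, and mouse 14 was lowest for 9. Gbp5 stood at 10.9, 4.88 and 79.6 CPM, so that mouse 14 lay below the controls and mouse 16 far above them. Without mouse 16 the call of Gbp2 was lost (adjusted p = 0.592), and the differences of Gbp2b (-0.74), Gbp4 (-0.14) and Gbp8 (-0.35) turned negative. The call of Gbp2 was also lost without any 1 of the wild-type controls (adjusted p = 0.0915 to 0.12), and without mouse 11 there were 5 calls. Ifng had 37 counts in mouse 16, 2 in mouse 11 and 0 in mouse 14. Neutrophil markers, 4 of 5 called higher, summed to 172, 204 and 293 CPM in mice 11, 14 and 16, of which Ly6g averaged 167 CPM. Macrophage and monocyte markers, none called, summed to 155, 157 and 131 CPM. The part of these cells was not tested.

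In IL-10 blockade all 10 members rose, where 27.2% of all genes were called higher. The median difference was 3.51, or 3.41 with Gbp10 set at its lower bound, against -0.01 over all genes. No member overlapped the wild-type controls, though the share of all genes without overlap was not counted. Gbp2b stood at 16, 18.1, 17.1 and 17.7 CPM, a difference of 4.01 ± 1.22 from controls near 1 CPM (adjusted p = 0.0081). Gbp2 stood at 526, 738, 253 and 351 CPM, a difference of 3.81 ± 0.897 (adjusted p = 0.00116). Gbp8, on chromosome 5, stood at 33.9, 33.5, 31.0 and 49.7 CPM against 2.44, 2.53 and 3.69, a difference of 3.68 ± 0.762 (adjusted p = 0.000355).

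The change in Gbp9 was the smallest of the members in IL-10 blockade. It stood at 33.7, 33.4, 34.1 and 29.8 CPM, a difference of 1.52 ± 0.527 (adjusted p = 0.0187), and lost its call without wild-type control 2 (adjusted p = 0.0716) or 4 (0.0517). Gbp10 had 17 to 39 counts and was at least 11.2-fold higher. Tissue markers moved as well. T-cell markers, 5 of 5 higher, summed to 56.9 to 97.9 CPM against 9.05 to 15.2. Neutrophil markers, 4 of 5 higher, summed to 232 to 918 CPM against 131 to 145, with Ly6g at means of 273 against 136 CPM. B and plasma cell markers, 2 of 5 higher, summed to 1240 to 2100 CPM against 117 to 398. Epithelial markers, 4 of 6 higher and 1 lower, summed to 5310, 6920, 6600 and 13700 CPM in mice 1 to 4 against 3910 to 4680. The upper end is thus mouse 4 alone. All 3 smooth muscle markers were called lower. The part of this shift in the tissue was not tested.

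In T-cell transfer colitis 9 of 10 members rose against the labelled Rag1 controls, where 16.1% of all genes were called higher, and 10 of 10 rose against the wild-type controls, where 16.9% were. The median difference was 3.51 against the first and 3.91 against the second control group. Gbp2 stood at 485, 296 and 977 CPM in TCT mice 1, 3 and 5, a difference of 3.75 ± 0.914 from the labelled Rag1 controls at 33.9, 23.5 and 73.4 CPM (adjusted p = 0.00299). Gbp9 stood at 57.5, 42.8 and 110 CPM against 6.72, 8.98 and 7.83, a difference of 3.15 ± 0.582 (adjusted p = 0.00021). Neither gene overlapped its controls, and mouse 5 was highest for all 10 members.

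Gbp2b and Gbp6 depended on the control group. Gbp2b stood at 9.16, 11.4 and 47.3 CPM in TCT. That overlapped the labelled Rag1 controls, with a difference of -1.44 ± 0.953 that did not pass (adjusted p = 0.27), but lay above all wild-type controls, with a difference of 4.40 ± 1.25 on the log2 scale (adjusted p = 0.0102). Gbp6 stood at 16.8, 12.1 and 40.6 CPM, a difference of 6.39 ± 1.20 from the labelled Rag1 controls (adjusted p = 0.000254) and of 4.53 ± 1.01 from the wild-type controls (adjusted p = 0.00178). Gbp10 had 36 to 137 counts, 3.62 ± 1.28 above the labelled Rag1 controls (adjusted p = 0.0364) and at least 28.3-fold above the wild-type controls. Against the labelled Rag1 controls Gbp10 lost its call without any 1 of them or TCT mouse 5 (adjusted p = 0.0698 to 0.187), and Gbp7 without control 3 (0.055) or TCT mouse 5 (0.0633). The 2 control groups also differ in lymphocytes, strain transcripts and Rag genotype, which cannot be told apart here.

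T-cell markers, 5 of 5 higher, summed to 71.9 to 135 CPM in TCT against 3.32 to 4.64 CPM in the labelled Rag1 controls, where Cd3d was at 0. Macrophage and monocyte markers, 5 of 5 higher, summed to 244 to 349 CPM against 37.2 to 55.2. Neutrophil markers, 4 of 5 higher, summed to 329 to 585 CPM against 151 to 293, with Ly6g at means of 307 against 212 CPM. The part of these cells was not tested.

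In anti-CD40 colitis all 10 members rose against the labelled Rag1 controls, where 10.9% of all genes were called higher. No member overlapped, though the share of all genes without overlap was not counted. The median difference was 3.15, against -0.03 over all genes. Gbp4 stood at 203, 236 and 110 CPM against 12.1, 13.9 and 15.2, a difference of 3.73 ± 0.916 (adjusted p = 0.00572). Gbp2b stood at 524, 675 and 380 CPM against 45.5, 34.2 and 104, a difference of 3.10 ± 0.986 (adjusted p = 0.0268). Gbp10 stood at 13, 15.1 and 9.32 CPM against 0.162, 0.589 and 0.774, a difference of 4.59 ± 1.28 (adjusted p = 0.014). In each of these genes the lowest treated mouse was several times the highest control.

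Mouse 8 of anti-CD40 was lowest for all 10 members and mouse 7 highest for 9. Against the Rag2 controls 8 of 10 members were called higher, where 12.4% of all genes were, and Gbp2 (1.90 ± 0.848, adjusted p = 0.103) and Gbp2b (2.53 ± 0.961, adjusted p = 0.0572) were not. Against the labelled Rag1 controls 4 calls were left without control 3 and 5 without anti-CD40 mouse 7. T-cell markers, 0 of 5 called, summed to 3.51 to 5.74 CPM against 3.32 to 4.64 in the labelled Rag1 controls. Macrophage and monocyte markers, 0 of 5 called, summed to 65.0 to 80.2 CPM against 37.2 to 55.2, without overlap. Neutrophil markers, 5 of 5 higher, summed to 555 to 884 CPM against 151 to 293. Most of this was Ly6g, at means of 605 against 212 CPM, while S100a8 averaged 56.7 against 0.243 CPM. The part of these cells was not tested. Ifng had 5 to 19 counts in the treated mice and 0 in the labelled Rag1 controls.

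**Figure D3:**
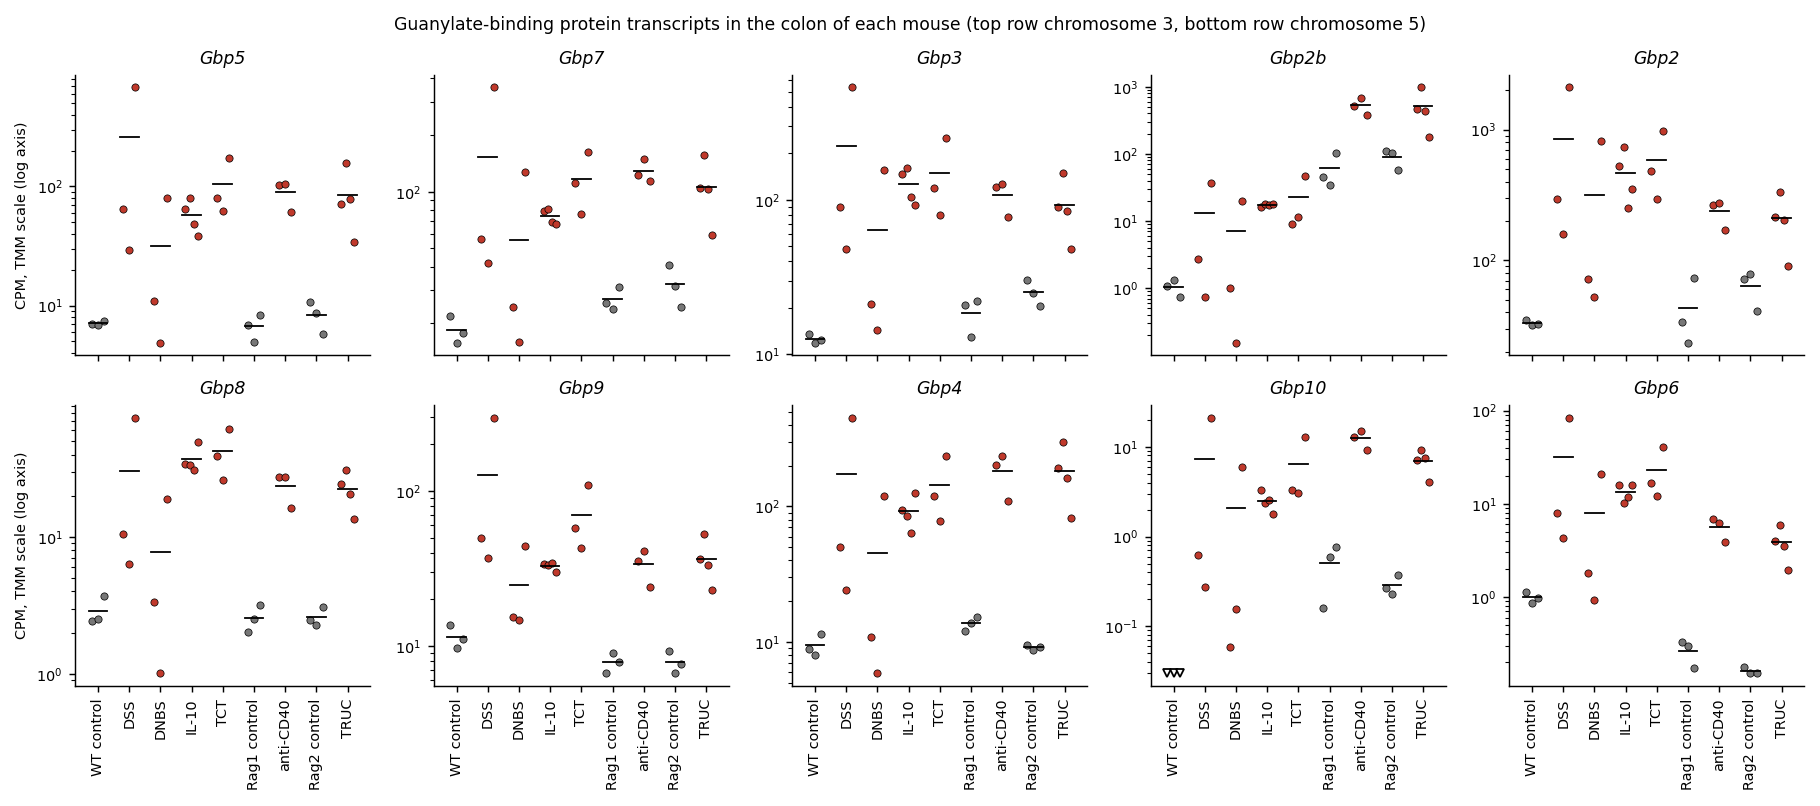
CPM of each member in every mouse on log axes, with control groups in grey, colitis groups in red, group means as bars and counts of 0 as open triangles (no bar is drawn for a group with a 0). The top row is the chromosome 3 cluster and the bottom row the chromosome 5 cluster, and mouse 8 of DSS and mouse 16 of DNBS stand high in every panel.

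**Figure D4:**
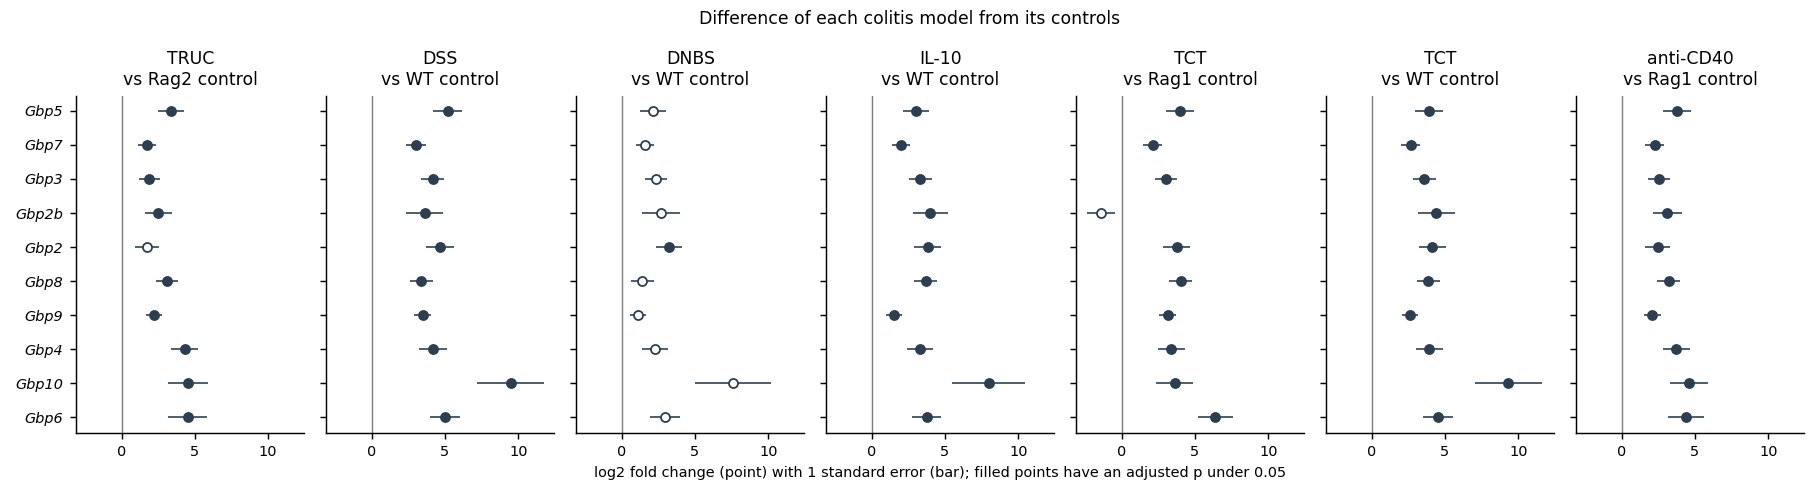
Log2 fold change (points) with 1 standard error (bars) for each member in each model against its controls, with filled points for an adjusted p under 0.05. All points but Gbp2b in TCT against the labelled Rag1 controls lie right of 0, and the points of Gbp10 against the wild-type controls rest on controls without a read, so they have no set size.

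The members were then asked whether they responded alike in the 6 models. The test of equal differences in all models passed for 3 of 10 members, Gbp2b (adjusted p = 0.0139), Gbp5 (0.0385) and Gbp9 (0.00235), where 60.5% of all genes passed. With TCT set against the wild-type controls, Gbp2b no longer passed (adjusted p = 0.61) while Gbp5 (0.0425) and Gbp9 (0.00529) did, where 55.5% of all genes passed. The differences of Gbp9 ran from 1.10 in DNBS and 1.52 in IL-10 blockade to 3.48 in DSS, and those of Gbp5 from 2.16 in DNBS to 5.19 in DSS. Without DNBS mouse 16, all 10 members passed. A p that misses the threshold does not show that the other members responded alike, as their standard errors were wide, 1.33 for Gbp6 in TRUC for example.

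Models with the same control mice could be set directly against each other. Between IL-10 blockade and DSS, 2 of 10 members were lower in IL-10 blockade, where 25.1% of all genes were called lower. Gbp9 differed by -1.96 ± 0.489 (adjusted p = 0.00195) without overlap of the mice, and Gbp5 by -2.16 ± 0.766 (adjusted p = 0.022) with overlap. Without DSS mouse 8 neither was called, at -0.40 for Gbp9 (adjusted p = 0.387) and 0.29 for Gbp5 (adjusted p = 0.754), so the direction of Gbp5 rests on that mouse. The call of Gbp5 was also lost without IL-10 blockade mouse 4 (adjusted p = 0.0572). Between IL-10 blockade and DNBS, Gbp8 alone was called higher, at 2.28 ± 0.691 (adjusted p = 0.0139) without overlap, where 17.4% of all genes were. This call was lost without DNBS mouse 11 (adjusted p = 0.0898) or 14 (0.0687), whereas 9 members were called without DNBS mouse 16. Between DSS and DNBS, Gbp5 (3.03 ± 0.878, adjusted p = 0.0155), Gbp9 (2.38 ± 0.547, adjusted p = 0.00364) and Gbp8 (1.98 ± 0.711, adjusted p = 0.0465) were higher in DSS, where 11.4% of all genes were. All 3 overlapped between the groups and lost their calls without DSS mouse 8, and all 10 members were called without DNBS mouse 16.

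Between TCT and anti-CD40, Gbp2b was lower in TCT by -4.54 ± 1.06 (adjusted p = 0.00339) without overlap, at 9.16 to 47.3 against 380 to 675 CPM, where 7.32% of all genes were called lower. This comparison also crosses the split in H2-Ea-ps. Gbp2, Gbp6 and Gbp9 were higher in every TCT mouse than in any anti-CD40 mouse, with differences of 1.30, 2.03 and 1.06 that did not pass (adjusted p = 0.317, 0.104 and 0.179). The change in TCT, less the change in TRUC, was called by edgeR for 0 of 10 members, where 5.36% of all genes were called higher and 3.86% lower, with 1 member at an unadjusted p under 0.05 and 1 called by DESeq2. Gbp2b was that member in both, at -3.95 ± 1.32 (adjusted p = 0.0619), and with TCT against the wild-type controls its value was 1.90 ± 1.52 (adjusted p = 0.624). Without TCT mouse 5 it was called, at -5.07 (adjusted p = 0.03).

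The order of the groups by mean level differed between members. For Gbp2 the group means ran from DSS (855 CPM) through TCT (586), IL-10 blockade (467), DNBS (316), anti-CD40 (238) and TRUC (210) to the Rag2 (63.7), labelled Rag1 (43.6) and wild-type controls (33.3). Of these neighbours TRUC and the Rag2 controls alone did not overlap. For Gbp2b the order was another, from anti-CD40 (526 CPM) and TRUC (517) to the Rag2 (91.1) and labelled Rag1 controls (61.2), then TCT (22.6), IL-10 blockade (17.2), DSS (13.3), DNBS (7.07) and the wild-type controls (1.05). Untreated mice of the Rag control groups thus had mean Gbp2b levels above those of 4 colitis models, and here too TRUC and the Rag2 controls were the neighbours without overlap. Those 4 models had 0 or 1 H2-Ea-ps count per library and the Rag controls had many more, so this order also follows that split.

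Within groups the members moved together. Taken as deviations from the group means, log2 CPM of the 45 pairs of members correlated over the 29 mice at Pearson r between 0.857 and 0.988. Over the mice without removing group means, the 36 pairs without Gbp2b correlated at 0.712 to 0.974 and the 9 pairs with Gbp2b at 0.0441 to 0.691. The points share libraries and depth, and the r values are descriptions.

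Genes outside the family with the pattern most like the members were found by Pearson r of log2 CPM with the members' mean scaled profile over the 29 mice. They were Gm5970 (0.975), Parp14 (0.972), F830016B08Rik (0.968), Irgm2 (0.968), Igtp (0.967), Irgm1 (0.965), Dtx3l (0.964), Sp110 (0.959), Tgtp2 (0.958) and Il18bp (0.957). Irgm1, Irgm2, Igtp and Tgtp2 encode immunity-related GTPases, and Il18bp encodes a secreted binder of IL-18. Gbp11, a family gene next to the chromosome 5 cluster that is annotated as a polymorphic pseudogene and is not a member, rose in all models but DNBS, by 3.56 in IL-10 blockade to 5.25 in DSS.

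Ligands of the pathway were scarce in controls. Ifng had at most 1 count in any control mouse, 27 to 67 in IL-10 blockade, 45 to 75 in TCT, 11 to 35 in TRUC and 5 to 19 in anti-CD40. Across mice the members' mean level went up with Ifng, with DSS mouse 8 at the top of both at 47.5 CPM of Ifng. Anti-CD40 mice had less Ifng, at 0.359 to 1.63 CPM, than IL-10 blockade mice, at 2.8 to 7.00 CPM, and the members did not order these groups alike. Gbp2b averaged 526 CPM in anti-CD40 and 17.2 in IL-10 blockade. Means were also higher in anti-CD40 for Gbp4 (183 and 92.2), Gbp5 (89.6 and 57.7), Gbp7 (129 and 74.3) and Gbp10 (12.5 and 2.51). Gbp9 was close, at 33.6 and 32.8 CPM. Gbp2 averaged 238 and 467, Gbp3 108 and 126, Gbp6 5.69 and 13.5, and Gbp8 23.7 and 37 CPM. The groups lie on opposite sides of the split in H2-Ea-ps, and these differences were not tested. Of the 6 ligand and inducer genes tested out of 9 listed, 3 were called higher in TRUC, IL-10 blockade and TCT alike, 5 in DSS, 1 in anti-CD40 and 0 in DNBS. Ifng passed in TRUC, DSS, IL-10 blockade and TCT. Tnf, a co-inducer of many interferon targets, was among them in each model but DNBS, by 3.52 in anti-CD40 to 5.89 in DSS. Il18 was called lower in TCT against the labelled Rag1 controls, at -1.66, where 14% of all genes were called lower. Against the wild-type controls no gene of this list was called lower in TCT, with -1.065 as the lowest difference. TCT values of this and the other pathway lists are against the labelled Rag1 controls, a comparison that crosses the split in H2-Ea-ps.

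**Figure D5:**
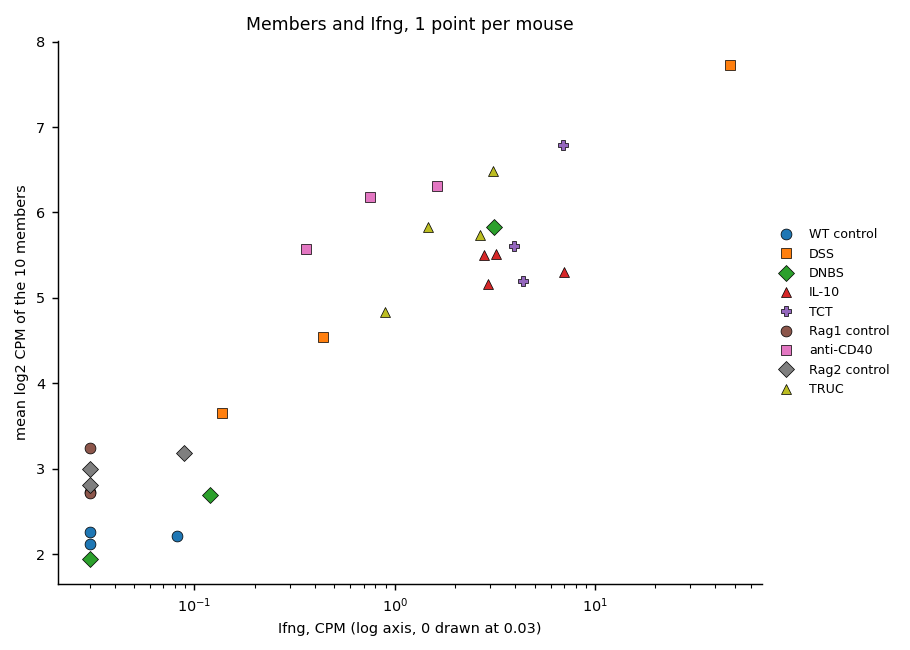
Each point is 1 mouse, with Ifng as CPM on a log x axis (0 drawn at 0.03) and the mean log2 CPM of the 10 members on the y axis. Controls lie at the lower left together with DNBS mice 11 and 14, DSS mouse 8 at the upper right, and anti-CD40 mice above the IL-10 blockade mice at lower Ifng, with Gbp2b, which is far higher in anti-CD40, included in the mean. Anti-CD40 and IL-10 blockade mice also lie on opposite sides of the split in H2-Ea-ps.

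By list median, receptors and kinases of the pathway changed little beside the members. Of 9 genes, 5 were higher in TRUC, 4 in DSS and IL-10 blockade, 2 in TCT, 3 in anti-CD40 and 0 in DNBS. List medians lay between 0.05 and 0.48 on the log2 scale. Single genes reached 1.61 in DSS, 1.36 in TCT and 0.98 in TRUC, and at most 0.73 in the other models. Of all genes, 22.4% were called higher in TRUC, 17.7% in DSS and 27.2% in IL-10 blockade. The share was 16.1% in TCT, 10.9% in anti-CD40 and 3.95% in DNBS, and these shares apply to the other pathway lists too. Ifngr1, a chain of the interferon-gamma receptor, rose by 0.31 in TRUC, 0.56 in TCT and 0.50 in anti-CD40, and Ifngr2 was called lower in DSS at -0.67, where 16.3% of all genes were called lower. Of the 9 transcription factors and brakes, 7 rose in TRUC, 8 in DSS and IL-10 blockade, 6 in TCT and anti-CD40 and 2 in DNBS. Irf1, a factor that binds ISRE sites, rose by 1.19 in TRUC, 1.24 in DSS, 1.35 in anti-CD40, 1.47 in TCT and 1.92 in IL-10 blockade. Socs1, a feedback inhibitor of JAK kinases, rose in all 6 models, by 3.44 in DNBS to 5.00 in TRUC. Irf2, a repressor at ISRE sites, was called lower in TRUC (-1.14), DSS (-0.85) and IL-10 blockade (-0.51).

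The other GTPase family of the response, the immunity-related GTPases, changed with the GBPs. All 9 rose in each model but DNBS, where 8 rose, with list medians from 3.43 in DNBS to 5.43 in IL-10 blockade. Iigp1, which coats parasite vacuoles with GBPs, rose by 4.49 in DNBS, 5.41 in DSS, 5.43 in IL-10 blockade, 5.66 in TRUC, 6.05 in anti-CD40 and 6.21 in TCT. Of the 3 CXCR3 ligands, which draw in T and NK cells, Cxcl9 and Cxcl10 rose in all 6 models, by 5.52 to 7.73 and by 4.42 to 7.73. Cxcl11 rose in 4, by 4.17 in IL-10 blockade to 7.44 in anti-CD40, and did not pass in TRUC (2.73) or DNBS (2.67).

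Partners of GBP function ranged widely. Of the 7 inflammasome genes, 6 were higher in TRUC and TCT, 5 in IL-10 blockade, 4 in DSS and anti-CD40 and 1 in DNBS. Il1b, the cytokine gene that inflammasomes act on, rose in all 6 models, by 2.94 in anti-CD40 to 8.47 in DSS. Nlrp3, an inflammasome sensor, rose by 3.51 in TRUC, 3.68 in TCT and 5.48 in DSS. Casp4, the mouse caspase-11 that senses lipopolysaccharide, rose by 1.31 in TRUC, 2.24 in DSS, 2.51 in IL-10 blockade, 1.14 in TCT and 1.09 in anti-CD40. Gsdmd, the pore protein it cleaves, rose by 0.85 in TCT to 1.28 in IL-10 blockade in the same 5 models. In DSS, Pycard (-1.35) and Aim2 (-0.68) were called lower. Of the 10 ATG conjugation genes, which help to place GBPs on vacuoles, 2 were higher and 4 lower in TRUC, where 23.4% of all genes were called lower, and 4 higher and 3 lower in IL-10 blockade, where 26.1% were. The counts were 2 and 1 in DSS, 0 and 4 in TCT, and 0 and 2 in anti-CD40, where 10.7% of all genes were called lower, with none called in DNBS. Atg7 was called lower in each model but DNBS, at -0.27 in IL-10 blockade to -0.75 in TRUC.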

How the data were processed

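The authors deposited raw counts, whole numbers of reads per gene and mouse without normalization. The submitters' processing notes name Trimmomatic, HISAT2, HTSeq and the GRCm38 genome, without versions. The table was read here with GENCODE M21 and RefSeq symbols. Its 92 spike-in rows, which held no reads, were dropped. Counts were scaled by TMM in edgeR 4.0.16 (R 4.3.3). Genes averaging 3 counts or more over the mice (18616) were fitted with a quasi-likelihood model of all 9 groups, without pairing. Adjusted p values are Benjamini-Hochberg over all genes tested, with a threshold of 0.05, and the standard error is the absolute log2 fold change over the square root of F. Limits for counts of 0 use 3 counts per library. Of the 33 pairs of mice within groups none looked like 1 library deposited again, as the lowest ratio of chi-square to its degrees of freedom was 3.42. Labels give separate mice, so p values measure the spread between mice, as a single estimate per gene pooled over all 9 groups. They do not measure the spread of the 2 compared groups alone. Gbp2, for example, had an SD of 1090 CPM in DSS and 1.82 CPM in the wild-type controls, and both entered the same estimate. A member without overlap can therefore miss the threshold.

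The members, lists and rules for named genes (all members, pathway lists, cell type markers, and the 10 genes of highest r) were chosen with earlier results of these data known. In simulated counts of 18472 to 18497 genes per comparison, 200 genes drawn at random were changed by 2 on the log2 scale. Of these, edgeR recovered 78.5% to 84.5% per model, with 1 to 14 others called. All groups had equal means there but for these 200 genes, whereas in the data 22.4% of all genes were called higher in TRUC. The recovery therefore does not give the power for the members. Alternatives were RLE and upper quartile scaling, no filter, filterByExpr, DESeq2 1.42.0, edgeR on the compared groups alone, a threshold of 0.01, a replicate block and leaving out each mouse. Values of 1 gene of the pathway lists are not reported here.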

Additional observations from a re-analysis of the deposited data

Results flagged for a closer look

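In IL-10 blockade, mouse 4 stood apart from the other 3 mice by Dixon's test at the 95% level for Gbp8, at 49.7 CPM against 31.0 to 33.9, and for Gbp9, at 29.8 CPM against 33.4 to 34.1. Chance alone sets apart about 1 in 20 such groups, and 20 groups were examined (10 members in IL-10 blockade and in TRUC). Mouse 4 also had the highest epithelial marker sum of its group, at 13700 CPM against 5310 to 6920, and the part of its tissue make-up was not tested.

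Equal differences in all 6 models were not found for Gbp2b (adjusted p = 0.0139), Gbp5 (0.0385) and Gbp9 (0.00235), where 60.5% of all genes passed the same test. Gbp2b no longer passed with TCT set against the wild-type controls (adjusted p = 0.61). Among models with the same control mice, Gbp5 (-2.16) and Gbp9 (-1.96) had lower log2 differences in IL-10 blockade than in DSS. Gbp8 was higher in IL-10 blockade than in DNBS (2.28), a call lost without DNBS mouse 11 or 14. Gbp5 (3.03), Gbp8 (1.98) and Gbp9 (2.38) were higher in DSS than in DNBS. The flagged differences from DSS were all lost without DSS mouse 8. Gbp2b was lower in TCT than in anti-CD40 (-4.54), a comparison that crosses the split in H2-Ea-ps.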

How the results depend on the processing

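Outside the left-out mice, counts of called members in TRUC (6 to 10), DSS (8 to 10), IL-10 blockade (9 to 10) and TCT (7 to 10) stayed within 1.5 times the reported ones under every setting run. Shares of all genes called were not counted under changed processing or with a mouse left out. At a threshold of 0.01, calls fell to 0 in DNBS, 3 in anti-CD40, 1 between IL-10 blockade and DSS, 0 between IL-10 blockade and DNBS, 1 between DSS and DNBS, and 1 for equal responses. Without the filter on low counts there were 4 in DNBS, 1 for TCT less TRUC and 5 for equal responses. With edgeR on the compared groups alone there were 0 in DNBS, 1 between IL-10 blockade and DSS, 0 between IL-10 blockade or DSS and DNBS, 2 between TCT and anti-CD40, 2 for TCT less TRUC and 6 between Rag2 and wild-type controls. DESeq2 gave 0, 0, 4, 1 and 6 for IL-10 blockade or DSS against DNBS, TCT against anti-CD40, TCT less TRUC and the control groups. Leaving out mice gave 5 to 10 calls in DSS, 0 to 5 in DNBS, 4 to 10 in anti-CD40, 1 to 3 between IL-10 blockade and DSS, 0 to 9 between IL-10 blockade and DNBS, 0 to 10 between DSS and DNBS, 0 to 1 for TCT less TRUC and 2 to 10 for equal responses. The DNBS call of Gbp2 was lost without any 1 wild-type control. Reversed differences were those of Gbp2b (-0.74), Gbp4 (-0.14) and Gbp8 (-0.35) without DNBS mouse 16 (up to 3.26, 2.79 and 1.93 without mouse 14), Gbp5 (0.29) between IL-10 blockade and DSS without DSS mouse 8 (down to -2.70 without mouse 6), and Gbp2b in TCT on wild-type controls (4.40). Apart from the settings' fewer mice or genes the cause was not tested. With the replicate block, on the mice that share numbers, 10 members were called in IL-10 blockade and 10 in TRUC, as without the number; deviations of same-numbered mice correlated at -0.0518 to 0.0556, so the numbers were not taken to pair mice. The TCT settings on wild-type controls for equal responses and TCT less TRUC, and all settings for the control groups, were chosen after seeing the data.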
